A study of Homo sapiens with 12 samples.

Results

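IFI16, AIM2, MNDA and PYHIN1 are the 4 human PYHIN genes, which lie together at 1q23 on chromosome 1, and they were looked up by Ensembl ID with GENCODE 29 among the 58735 gene IDs counted. Each of the 4 was found. They were chosen by earlier values of the knockout against wild type contrast in the non-directional libraries, so their levels in that contrast are given here as a description with no test. RNA was sequenced from HAP1, an established human cell line that carries close to a single set of chromosomes and came from a chronic myelogenous leukemia, and from HAP1 cells labelled SETDB1 knockout. The 4 groups of 3 libraries were wild type and knockout, each made with a non-directional kit, which loses the strand of the transcript, and again with a directional kit, which keeps it. No treatment is given in the labels, and both genotypes were grown in the same medium. The labels do not say whether the knockout line is 1 clone.

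PYHIN proteins join an N-terminal pyrin domain, which binds other pyrin domains, to C-terminal HIN domains that bind double-stranded DNA without regard to its sequence. IFI16 senses DNA of viruses and damaged DNA in the nucleus and cytosol and is known to act with cGAS upstream of STING, the adaptor that leads to interferon production. AIM2 binds DNA in the cytosol and assembles an inflammasome through the adaptor ASC, the product of PYCARD. MNDA is known from myeloid cells and PYHIN1 from lymphoid cells. SETDB1 methylates lysine 9 of histone H3 and is known for silencing retroelements.

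Total gene counts were 8921959 to 10199215 in the 6 non-directional libraries, and 80.3% to 80.4% of the listed reads fell in genes. The 6 directional libraries held 532021 to 676691 gene counts, since 94.6% of their listed reads fell in no gene. SETDB1 had 651, 543 and 519 counts in wild-type non-directional libraries and 118, 106 and 118 in knockout ones, so the knockout held 19.2% of the wild-type level. The 3 non-directional knockout libraries differed by less than the sampling noise (chi-square test over genes, smallest p = 0.773), while each wild-type pair differed (largest p = 0.00303). They were kept as 3 samples as labelled, and p-values then rest on a spread that may be technical. The myeloid origin of HAP1 was not visible in its markers: of 15 haematopoietic marker genes only KIT passed the filter on low counts, PTPRC had 1 count in all 6 non-directional libraries, and SPI1, MPO, LYZ and CD33 had none. The summed level of these markers was 19.4 to 20.01 CPM in wild-type cells and 17.1 to 18.01 in the knockout. Of 6 fibroblast markers only COL1A1 passed, and their summed level was 17.6 to 17.8 CPM in wild-type cells and 17.8 to 19.8 in the knockout. COL1A1 made up most of that sum, at a mean of 16.4 and 18.4 CPM. Of the 5 not tested, 3 had more counts in every wild-type library than in any knockout library. These were THY1 (7, 4 and 15 against 1, 2 and 1), COL1A2 (1, 4 and 1 against 0 in each) and PDGFRB (1, 1 and 3 against 0 in each). The other 2 had no counts. How often untested genes in general separate in this way is not given here, and COL1A1 was not called (edgeR adjusted p = 0.155).

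The windows around the RefSeq start sites show how the promoters of the 4 genes are related. Each window holds 300 bases on GRCh38.p14, from 250 before to 50 after the start, read 5′ to 3′ on the strand of the gene. They are printed because IFI16, which had reads in wild-type cells, and genes that had none share part of this sequence. Capitals mark the stretch in the best local alignment with the IFI16 window, and in the IFI16 window the stretch in its alignment with PYHIN1. The windows are chr1:159009657-159009956 for IFI16, chr1:158931302-158931601 for PYHIN1 and chr1:158831101-158831400 for MNDA, all on the plus strand, and chr1:159076717-159077016 on the minus strand for AIM2.
IFI16: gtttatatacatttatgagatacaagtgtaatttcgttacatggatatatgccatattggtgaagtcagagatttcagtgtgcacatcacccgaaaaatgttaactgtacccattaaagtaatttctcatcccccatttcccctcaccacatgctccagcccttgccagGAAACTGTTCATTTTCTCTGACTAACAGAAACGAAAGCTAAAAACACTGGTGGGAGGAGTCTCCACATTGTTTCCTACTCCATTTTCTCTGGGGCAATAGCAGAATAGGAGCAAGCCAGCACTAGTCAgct
PYHIN1: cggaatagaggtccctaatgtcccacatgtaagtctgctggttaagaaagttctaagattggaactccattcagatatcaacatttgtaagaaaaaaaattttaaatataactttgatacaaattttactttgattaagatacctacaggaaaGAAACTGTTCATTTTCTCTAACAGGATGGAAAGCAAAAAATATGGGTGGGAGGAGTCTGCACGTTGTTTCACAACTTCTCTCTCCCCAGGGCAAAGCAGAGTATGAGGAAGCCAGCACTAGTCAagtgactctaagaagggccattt
MNDA: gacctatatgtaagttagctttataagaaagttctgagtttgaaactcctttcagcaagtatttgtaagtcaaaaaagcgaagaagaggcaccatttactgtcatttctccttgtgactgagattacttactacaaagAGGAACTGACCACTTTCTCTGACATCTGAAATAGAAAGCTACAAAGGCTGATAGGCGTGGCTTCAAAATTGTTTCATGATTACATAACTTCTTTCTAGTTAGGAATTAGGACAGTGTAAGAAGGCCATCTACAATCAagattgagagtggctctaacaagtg
AIM2: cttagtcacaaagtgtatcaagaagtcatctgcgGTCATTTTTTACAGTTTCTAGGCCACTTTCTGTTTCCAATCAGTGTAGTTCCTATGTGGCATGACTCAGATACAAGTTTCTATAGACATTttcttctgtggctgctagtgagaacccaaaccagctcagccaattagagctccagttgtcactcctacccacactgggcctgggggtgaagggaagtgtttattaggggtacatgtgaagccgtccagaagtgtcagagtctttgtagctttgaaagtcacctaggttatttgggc

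The IFI16 and PYHIN1 windows matched in 103 of 129 aligned columns (79.8% identity, alignment score 74). The MNDA window matched IFI16 in 92 of 140 columns (65.7%, score 35). AIM2 gave 59 of 94 columns (62.8%) at a score of 14, which lay below the score of 15 of a second IFI16 window listed by RefSeq at chr1:159008741-159009040. The shared stretch therefore joined IFI16, PYHIN1 and MNDA, and the AIM2 window scored no higher than an IFI16 window that is not a copy of the first.

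All the windows were poor in CpG, the dinucleotide at which human DNA is methylated. The printed IFI16 window held 3 CpGs, those of PYHIN1, MNDA and AIM2 held 2 each, and the second IFI16 window held 1. The median over 35116 RefSeq promoters was 14, and 24.5% of them had 3 or fewer. GC content was 41.7% for IFI16, 38.0% for PYHIN1, 37.0% for MNDA and 45.0% for AIM2, against a median of 58.7%. The GAAANNGAAA core of the interferon-stimulated response element, searched on both strands, occurred once in MNDA and once in AIM2 and in neither IFI16 window nor PYHIN1, and 3.57% of all promoters held it. TATAAA on either strand occurred in the printed IFI16 window and in MNDA, and in 11.5% of all promoters. No window of the 4 genes held TTCNNNGAA, the letters of the STAT site (7.66% of all promoters), or GGGCGG, the GC box (45.0%). A match of letters is not a bound site, and its absence covers this window only.

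**Figure D1:**
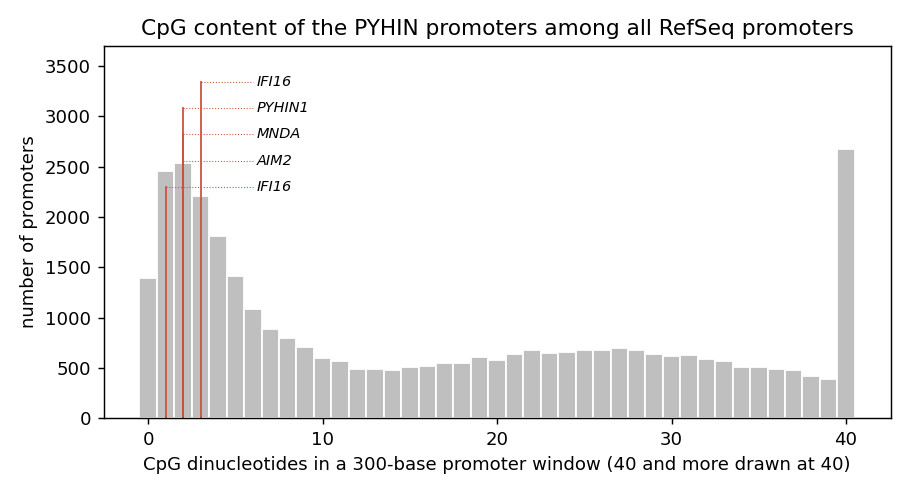
Histogram of the number of CpG dinucleotides (x axis) in the 35116 RefSeq promoter windows of 300 bases (y axis, number of promoters, with windows of 40 or more drawn at 40). Red lines mark the PYHIN windows, which held 1 to 3 CpGs and sit at the low end, below the median of 14.

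IFI16 was the one PYHIN gene with reads in HAP1 cells, and only the wild type held it at more than a trace. It had 596, 521 and 564 counts in wild-type non-directional replicates 1, 2 and 3, and 0, 1 and 1 counts in the knockout. Every wild-type library was far above every knockout library, and no knockout library held more than a single read. Per 1000000 gene counts (CPM) the wild type held 58.4, 58.4 and 60.02, a mean of 59.0 ± 0.93 (SD, n = 3), and the knockout 0.0668 ± 0.058 (SD, n = 3). The pooled knockout level, 2 counts of 29732414, was 0.0673 CPM with an exact 95% Poisson interval of 0.00815 to 0.243, which covers counting error only. The pooled wild-type level was 876 times the knockout level, with an exact 95% interval of 242 to 7242 from the 2 knockout counts. The fitted log2 fold change of -9.53 depends on the prior count of the fit and was -7.76 with a prior count of 2. Fewer cells that transcribe IFI16 and less IFI16 RNA per cell cannot be told apart in these bulk libraries.

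AIM2, the inflammasome receptor, had 0 counts in each of the 12 libraries, and so had MNDA and PYHIN1. A count of 0 of the 58249886 gene counts of the 6 non-directional libraries allows a level of up to 0.0515 CPM (3 counts over the 6 libraries). For a single non-directional library the limit was 0.294 to 0.336 CPM. None of these 3 genes reached the filter on low counts in either kit, so no fold change exists for them. No rise was detected in the knockout, where 0 of 29732414 gene counts allows up to 0.101 CPM (3 counts over the 3 libraries). IFI16 was thus the only member of the 4 that was fitted.

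**Figure D2:**
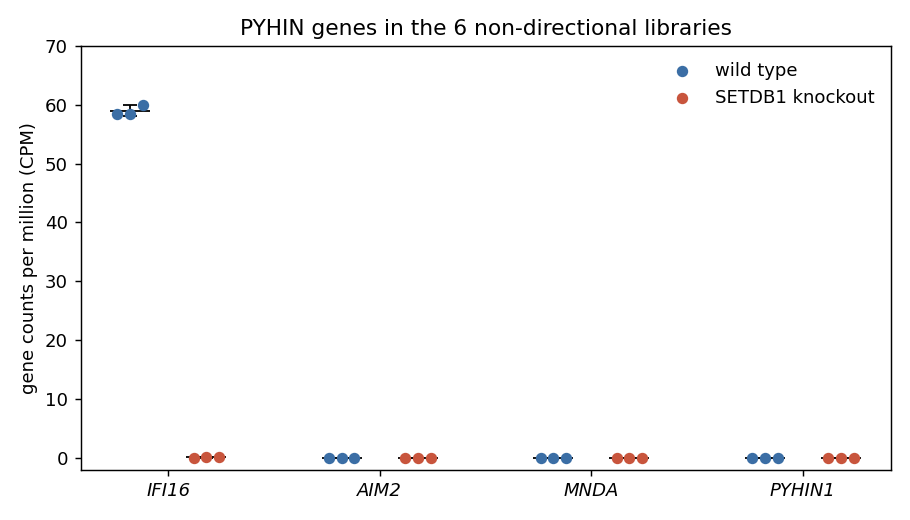
CPM (y axis) of the 4 PYHIN genes in the 3 wild-type (blue) and 3 knockout (red) non-directional libraries, with the mean and SD of each group as bars. IFI16 lies at 58.4 to 60.02 CPM in wild-type cells and at 0 to 0.102 in the knockout, and the other 3 genes lie at 0 in all 6 libraries.

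IFI16 (ENSG00000163565) spans 55.2 kb, chr1:158999968-159055155 on the plus strand of GRCh38, with 5294 bases of exon. MNDA (ENSG00000163563, chr1:158831317-158849506, plus strand) and PYHIN1 (ENSG00000163564, chr1:158930796-158977054, plus strand) lie before it and AIM2 (ENSG00000163568, chr1:159062484-159147096, minus strand) after it. None of the 4 shares an exon with an annotated gene on either strand, so the IFI16 counts are not split with or borrowed from a neighbour. As transcripts per 1000000, computed here from exon lengths (TPM), the wild type held 45.0, 44.7 and 46.3, a mean of 45.3 ± 0.81 (SD, n = 3). This level was above that of 68.9% of the 13778 genes tested, whose median was 21.7 TPM. On the same scale CGAS, the sensor that makes the second messenger for STING, held 26.8 ± 1.0 TPM in the wild type, and LRRFIP1 held 41.9 ± 1.5 (SD, n = 3 each). The sensors DDX41, PRKDC, XRCC5, HNRNPA2B1 and XRCC6 lay above IFI16, at 132, 169, 590, 820 and 1192 TPM. The remaining listed sensors lay below it, with MRE11 at 25.5 TPM, RAD50 at 3.14 and ZBP1 at 0.

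In the directional libraries, which the choice of the 4 genes did not use, IFI16 had 4, 1 and 0 counts in wild-type cells and 0, 0 and 1 in the knockout, and the groups overlapped. At the non-directional rate, wild-type libraries of this size would have listed 479 to 608 IFI16 counts each. Per listed read the wild-type directional libraries held 0.305% of the non-directional IFI16 level, and the median over 8278 genes with no exon on the opposite strand was 0.565%. The low IFI16 counts of the directional tables were thus shared by other genes free of opposite-strand overlap, and these counts cannot be read as the sense transcription of the gene. No member passed the filter in the directional fit, in which edgeR called 16.2% of 4745 genes. A loss of IFI16 could not be judged from these few counts. The genotype by kit term is not given for IFI16, since the gene passed the filter over the 12 libraries through its wild-type non-directional counts alone.

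Genes on the long arm of chromosome 1 were lower in the knockout as a group, and IFI16 was read against that shift. Of 579 genes tested on 1q, taken as the genes after the largest gap without annotated genes on chromosome 1 (121580524 to 143343180), 91.5% had a log2 fold change below 0, and the median was -0.47. The median was 0.02 over 781 genes on 1p and 0.00 over all 13778 genes tested. Per library, the median of the 1q genes lay between -0.44 and -0.42 in the knockout and between -0.02 and 0.01 in the wild type, relative to the wild-type mean on the log2(CPM + 1) scale. The libraries of each genotype were close to each other, and the genotypes did not overlap.

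IFI16 fell far outside that shift. A level lowered by the 1q median alone would have been 42.6 CPM, or 416 to 433 counts in each knockout library, against the 0, 1 and 1 counts found. Less the 1q median the fitted log2 fold change of IFI16 was -9.06, and less the median of the genes within 5 Mb (-0.54, 128 genes) it was -8.99. The contrast that chose IFI16 is the same one, so its place as the lowest of the 579 fitted values is a description. Among 220 other 1q genes with 0.5 to 2 times its wild-type level, the median was -0.47 and the lowest was SETDB1 itself at -2.39. Other low 1q genes were weakly transcribed: ASTN1, a neuronal migration gene, went from 8.40 to 0.0328 CPM, and PRRX1, a homeobox gene, went from 1.48 to 0.

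**Figure D3:**
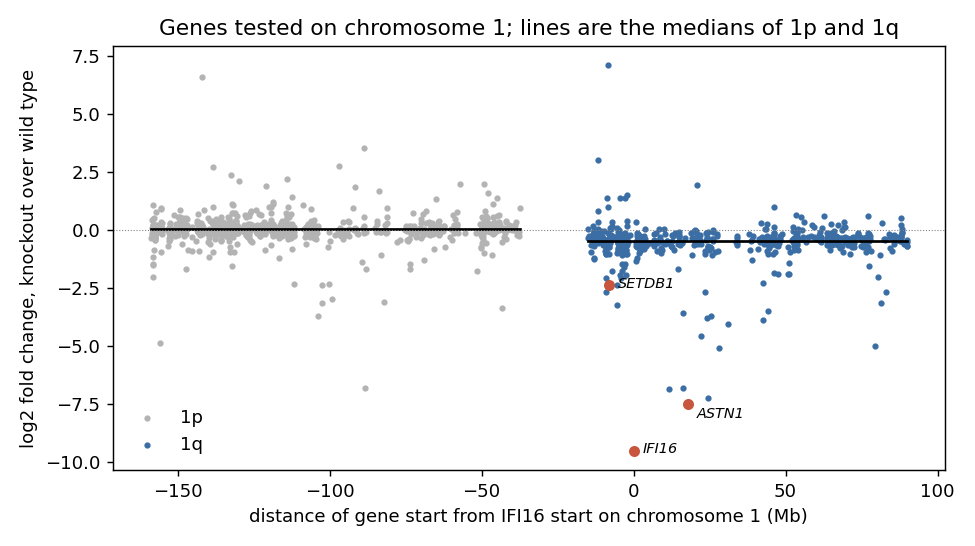
Log2 fold change of knockout over wild type (y axis) of every gene tested on chromosome 1 by the distance of its start from the start of IFI16 in Mb (x axis), with 1p in grey and 1q in blue. Black lines are the medians, 0.02 for 1p and -0.47 for 1q, and IFI16 at -9.53 is the lowest point.

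IFI16 stood alone in its neighbourhood. Of 93 annotated genes within 1 Mb of the PYHIN block, 8 passed the filter and 69 had no count in any non-directional library. Between KIRREL1, which ends 900 kb before IFI16, and DUSP23, which starts 726 kb after it, IFI16 was the only one of 65 annotated genes to pass. Many of the others belong to the olfactory receptors (31 genes), and the rest include the CD1 lipid-presenting genes. The 64 other genes held 47 counts in all over the 6 libraries, 16 of them in a pseudogene, against 1683 for IFI16. CD1D was among the few with reads, at 3, 2 and 3 counts in wild-type cells and 0, 1 and 0 in the knockout.

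The nearest transcribed neighbours changed little in comparison. KIRREL1, a cell adhesion gene, had 2238, 1938 and 1939 counts in wild-type cells and 1772, 1883 and 1905 in the knockout, a log2 fold change of -0.20 (edgeR adjusted p = 4.6e-07). DUSP23, a phosphatase, had 372, 365 and 284 counts and then 220, 215 and 232, a log2 fold change of -0.68 (edgeR adjusted p = 7.2e-12). These lay 0.26 above and 0.21 below the 1q median. Further out TAGLN2, an actin-binding protein, had a log2 fold change of -0.56, IGSF8 of -0.55, PIGM of -1.20 and IGSF9 of -1.34, all called lower by edgeR. CFAP45 was at 0.34 and was not called (edgeR adjusted p = 0.341). In the whole fit 25.9% of the 13778 genes were called lower and 25.5% higher, while on 1q 459 of 579 (79.3%) were called lower.

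Long L1 retroelements lie within and beside the block, and the deposited tables give a signal for each. Within 1 Mb there were 13 copies of at least 6 kb, with 0 to 10 recovered reads per copy and library. The block held 2 of them, both L1PA2. The copy between MNDA and PYHIN1 (chr1:158886104-158892114, positions as the tables give them) had 2, 4 and 2 reads in wild-type cells and 2, 2 and 8 in the knockout. The copy inside PYHIN1 (chr1:158952741-158958797) ends 41.2 kb before the GENCODE start of IFI16. It had 0 reads in each wild-type library and 2, 2 and 0 in the knockout. At both copies the reads of the genotypes overlapped. How reads shared by several L1 copies were assigned is not given in the sources used here.

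Summed over the 13 copies, the wild-type libraries held 10, 6 and 8 reads and the knockout libraries 20, 25 and 19, with no overlap. The sum was 0.835 ± 0.15 reads per 1000000 gene counts in wild-type cells and 2.16 ± 0.35 in knockout cells (SD, n = 3 for both), a log2 ratio of 1.37. The two-sided exact permutation test gave p = 0.1, the smallest value that 3 against 3 libraries allow. Over all 6437 L1 copies the log2 ratio of the same sums was 0.51. None of the 13 copies had enough reads to be tested alone, whereas edgeR on the recovered reads called 281 of the 816 copies that could be tested.

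The other DNA sensors were transcribed in both genotypes and moved by small amounts. Of 10 sensors outside the PYHIN family 9 were tested, 2 were called higher (22.2%) and 3 lower (33.3%), against 25.5% and 25.9% of all genes, with a median log2 fold change of 0.01 against 0.00. CGAS had 290, 238 and 252 counts in wild-type cells and 415, 405 and 390 in the knockout, with no overlap. It rose from 27.3 ± 0.98 to 40.7 ± 2.1 CPM (SD, n = 3 for both), a log2 fold change of 0.57 (edgeR adjusted p = 4.2e-11). PRKDC, the catalytic subunit of the DNA-dependent kinase, rose by 0.23 on the log2 scale. XRCC5 and XRCC6, the Ku subunits that bring that kinase to DNA ends, had log2 fold changes of -0.16 and -0.08, and HNRNPA2B1, a nuclear sensor of viral DNA, fell by 0.12. The XRCC6 call was lost when the 3 knockout libraries were taken as 1 sum (edgeR adjusted p = 0.190). ZBP1 had no counts.

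STING itself was scarce. TMEM173, which encodes it, had 6, 11 and 6 counts in wild-type cells and 1, 0 and 1 in the knockout, too few to be tested, although the groups did not overlap. IKBKE, a kinase related to TBK1 that lies on 1q, had 10, 6 and 9 counts and then 1, 1 and 0, and was not tested either. Of 10 genes of STING signalling 8 were tested, 4 were called lower (50%, against 25.9% of all genes) and none higher (25.5% of all genes), with a median of -0.23. TRIM56, a ubiquitin ligase of the pathway, fell by 0.68 on the log2 scale, TICAM1, an adaptor that also signals to TBK1, fell by 0.40 and RELA, an NF-kappaB subunit, fell by 0.38. TBK1, the kinase that STING recruits, had 336, 230 and 324 counts in wild-type cells and 272, 251 and 273 in the knockout. Its log2 fold change of -0.23 passed the threshold (edgeR adjusted p = 0.0110) but not without wild-type replicate 1 (edgeR adjusted p = 0.0846), wild-type replicate 3 (0.130) or knockout replicate 2 (0.0559). With all non-directional libraries kept, the DESeq2 Wald test did not call TBK1 (DESeq2 adjusted p = 0.0893). IRF3, the factor that TBK1 phosphorylates, was at 43.5 ± 1.8 and 46.3 ± 1.8 CPM and was not called (edgeR adjusted p = 0.245).

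Of 8 genes whose enzymes keep self DNA and RNA from the sensors 7 were tested, 1 was called higher (14.3%) and 3 lower (42.9%), against 25.5% and 25.9% of all genes (median -0.30). SAMHD1, which degrades deoxynucleotides, rose by 0.49 on the log2 scale, from 174 to 245 CPM. ENPP1, which breaks down the messenger made by cGAS, fell by 0.73, and RNASEH2C, a subunit of ribonuclease H2, fell by 0.42. ADAR, an RNA-editing enzyme on 1q, fell by 0.47, close to the 1q median. TREX1, the main DNA exonuclease of the cytosol, had no counts, but its exons overlap ATRIP on the same strand, and reads in more than one gene were not counted.

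Of 19 inflammasome genes, which belong to several kinds of inflammasome, 13 did not pass the filter, 6 of them with no count in the 6 libraries, among them NLRP3 and IL18. NLRC4, not tested, had 4, 5 and 3 counts in wild-type cells and 12, 8 and 11 in the knockout, with no overlap. IL1B, also not tested, had 5, 3 and 2 counts and then 0 in each library. PYCARD, the adaptor that AIM2 binds, had 35, 27 and 23 counts in wild-type cells and 20, 35 and 25 in the knockout, which overlap (edgeR adjusted p = 0.604). CASP1, the protease of the inflammasome, had 0, 2 and 0 counts and then 0, 0 and 1. Of the 6 tested, 2 were called higher (33.3%) and 1 lower (16.7%), against 25.5% and 25.9% of all genes (median -0.11). NINJ1, which ruptures the membrane of dying cells, rose by 0.54 on the log2 scale and NLRP1, another inflammasome sensor, rose by 0.53, while NEK7, an NLRP3 partner on 1q, fell by 0.26. NINJ1 lies on chromosome 9, and a shared shift of the genes near it was not tested. The NLRP1 call was lost without wild-type replicate 1 (edgeR adjusted p = 0.0633) and in the DESeq2 Wald test (DESeq2 adjusted p = 0.0662).

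All 15 interferon receptor and JAK-STAT genes were tested, 2 were called higher (13.3%) and 3 lower (20%), against 25.5% and 25.9% of all genes (median -0.04). IRF2, an interferon regulatory factor, fell from 9.28 ± 1.1 to 4.01 ± 0.47 CPM (SD, n = 3 for both), a log2 fold change of -1.23 (edgeR adjusted p = 1.3e-10). IRF2 lies on chromosome 4, and a shared shift of the genes near it was not tested. TYK2 fell by 0.21, and STAT2 rose by 0.27 on the log2 scale. IFNGR1 was at -0.24, and its call was lost under alternatives that left out 1 library. For IFNGR1 the edgeR adjusted p was 0.0819 without knockout replicate 1 and 0.0569 without knockout replicate 2. The DESeq2 Wald test with no library left out did not call it either (DESeq2 adjusted p = 0.0689).

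Of 32 interferon-stimulated genes, a class to which IFI16 itself belongs, 17 were tested, 14 were called lower (82.4%) and 1 higher, with a median log2 fold change of -0.86. The share called lower over all genes was 25.9%. PSMB8, an immunoproteasome subunit, had 582, 509 and 538 counts in wild-type cells and 49, 50 and 42 in the knockout, a log2 fold change of -3.59 (edgeR adjusted p = 9.9e-50). PSMB9, another such subunit, fell by 2.28 and BST2, which tethers virus particles to the cell, fell by 1.46 on the log2 scale. PSMB8 and PSMB9 overlap each other and an antisense RNA, so their reads cannot be told apart by strand. IFITM3, an antiviral membrane protein, was called higher at 7, 7 and 7 against 14, 11 and 20 counts. That call was lost without wild-type replicate 1 (edgeR adjusted p = 0.0529), without knockout replicate 3 (0.140) and in the DESeq2 Wald test (DESeq2 adjusted p = 0.105). Of the 15 genes not tested, 4 had more counts in every wild-type library than in any knockout library, and 0 had the reverse. Among these 4, OAS2 and IFIH1 had 12, 8 and 6 and 8, 16 and 14 counts in the wild type, against 0, 1 and 0 and 2, 0 and 1 in the knockout. The share of all untested genes that separate in this way is not given here, so this count has no background to be read against.

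Of 8 genes whose products are known to bind or work with IFI16, all were tested, 5 were called lower (62.5%, against 25.9% of all genes) and none higher (25.5% of all genes), with a median of -0.15. SUV39H1, another histone H3 lysine 9 methyltransferase, fell by 0.74 on the log2 scale and RB1, the retinoblastoma tumour suppressor, fell by 0.38. CDKN1A, a cell cycle inhibitor, was at -0.79, a call lost without knockout replicate 3 (edgeR adjusted p = 0.0862) and in the DESeq2 Wald test (DESeq2 adjusted p = 0.0634). Several of the genes named above, among them CGAS, TBK1, RELA, IRF3, SAMHD1 and SUV39H1, have an exon that an opposite-strand gene overlaps, and the non-directional kit cannot separate such reads.

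**Figure D4:**
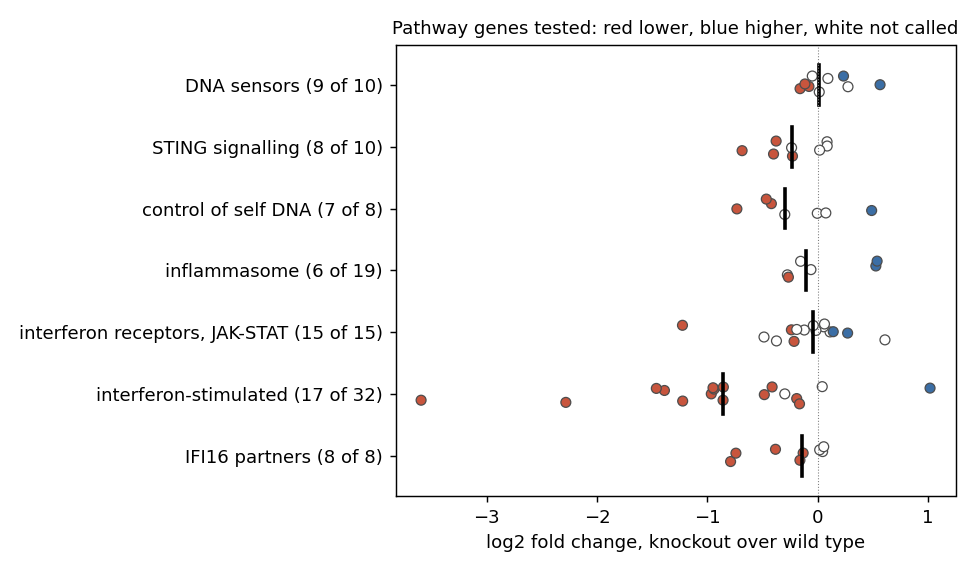
Log2 fold change of knockout over wild type (x axis) of the tested genes in 7 lists (y axis, with the number tested of the number listed). Each point is a gene, red when called lower, blue when called higher and white when not called, and the black bar is the median, which is -0.86 for the interferon-stimulated genes and between -0.30 and 0.01 for the other 6 lists.

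Genes with the pattern of IFI16 were rare. Of 10737 genes with at least 5 CPM in every wild-type library, 10 (0.0931%) had at most 1 count in every knockout library, a rule set on the same contrast and given as a description. IFI16 was the highest of the 10 in the wild type, followed by ACKR3, a scavenging chemokine receptor, at 24.7 ± 1.0 CPM (SD, n = 3), EPDR1 at 14.7, SHISA2, an inhibitor of Wnt and FGF receptor maturation, at 11.97, and FXYD6, a modulator of the sodium pump, at 10.1. The others were POF1B, ASTN1, TOX2, FAM19A4 and APCDD1, at 6.41 to 9.53 CPM. IFI16 and ASTN1 lie on 1q, as do 462 of the 10737 genes, and the other 8 genes lie on 8 different chromosomes. HCLS1, with 3 counts in 1 knockout library, and GALNT14, with 2, lay just outside the rule. The mirror set, with at least 5 CPM in every knockout library and at most 1 count in every wild-type library, held 12 of 10725 genes (0.112%). None of the 12 lies on 1q, which holds only 433 of the 10725, so few would be looked for there.

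By Euclidean distance of log2(CPM + 1) over the 6 non-directional libraries, the 6 genes nearest to IFI16 were FASTKD2, GALNT14, HCP5, SPOCK1, HCLS1 and ACKR3, at distances of 1.20 to 2.13. FASTKD2, a mitochondrial RNA-binding protein, held 86.3 ± 2.3 CPM in wild-type cells and 0.436 ± 0.11 with SETDB1 knocked out, and SPOCK1, a proteoglycan, held 43.4 ± 2.0 and 1.01 ± 0.22 (SD, n = 3 each). None of the 6 lies on chromosome 1. HCP5 also shares an exon with MICA on its own strand. FASTKD2, GALNT14 and HCP5 have an exon that an opposite-strand gene overlaps, whereas SPOCK1, HCLS1 and ACKR3 do not.

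**Figure D5:**
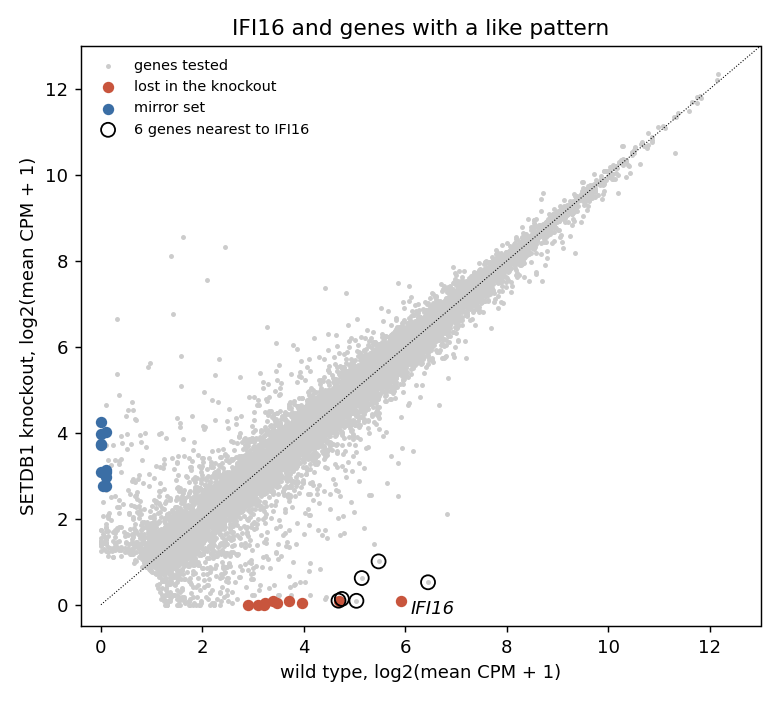
Mean level in the wild type (x axis) and in the knockout (y axis), both as log2(CPM + 1), of the 13778 genes tested (grey), with the 10 genes lost like IFI16 in red, the mirror set of 12 genes in blue and the 6 genes nearest to IFI16 circled. IFI16 is the red point furthest to the right, at 59.0 CPM in the wild type.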

How the data were processed

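RNA was sequenced from wild-type and SETDB1 knockout HAP1 cells in 12 libraries, grouped by their titles. The authors deposited raw counts per gene (HTSeq layout). The submitters' processing notes name Trim Galore 0.4.4, STAR 2.6.0a, HTSeq 0.11.1 and the build hg38. The strand setting of the counting is not given in the sources used here. Gene IDs were matched to GENCODE 29 (58735 of 58735). A signal per L1 copy was deposited for the non-directional libraries, which was 100% whole reads divided by 1 factor per library (within 0.001), and those reads were recovered. The publication in hand concerns another study, so none of its methods were used.

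Each kit was fitted alone by edgeR 4.0.16 (quasi-likelihood test, R 4.3.3) with TMM scaling, a filter at a minimum count of 10 and total of 15, and Benjamini-Hochberg adjustment at 0.05 over all genes tested. Fitted fold changes used a prior count of 0.125. The fit was tested on simulated data. L1 sums were compared by an exact permutation test (scipy 1.17.1). Promoters came from RefSeq on GRCh38.p14, where all 4 genes matched, and were aligned with Biopython 1.88 (match 1, mismatch -1, gap opening -2, extension -1). Without molecular identifiers, intervals and limits cover counting error only. A limit of 3 counts stood for a count of 0, which is 0.294 to 0.336 CPM per non-directional and 4.43 to 5.64 CPM per directional library.

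The 4 genes and the lists were chosen with earlier results of these data known. Named genes were the 4 members, up to 3 called higher and 3 called lower per list by size of change, CGAS, TMEM173, TBK1, IRF3, PYCARD, CASP1 and SETDB1 in any case, neighbours within 1 Mb that passed the filter, the 6 genes nearest to IFI16 and the genes lost like it. IKBKE, CD1D, OAS2, IFIH1, ZBP1, TREX1, NLRP3, IL18, LRRFIP1, DDX41 and PRRX1 were added after their values were seen. The same holds for NLRC4, IL1B, THY1, COL1A2, PDGFRB, MRE11 and RAD50. Some genes that the rule names are not reported here. DESeq2 1.42.0, other scalings and filters, a replicate block and leaving out libraries were the alternatives.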

Additional observations from a re-analysis of the deposited data

How the results depend on the processing

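Under 11 alternatives of the non-directional fit the number of genes called lay between 5359 (DESeq2 Wald test) and 7134, against 7089, and the number in the lists between 33 and 46, against 41. The count of interferon-stimulated genes called lower, an alternative chosen after seeing the data, lay between 12 and 16, against 14, and was 15 when the 3 knockout libraries were taken as 1 sum. Of the 41 list calls, 30 were kept under all 11 alternatives and none changed sign. Those lost in at least 1 alternative included CDKN1A, E2F1, IFI35, IFITM3, IFNGR1, NLRP1, PLSCR1, TBK1 and XRCC6. The fitted IFI16 log2 fold change was -9.87 to -9.03 under 12 alternatives and -7.76 with a prior count of 2, which by construction shrinks a gene with few counts. The 1q median was -0.47 to -0.46 in 10 alternatives, -0.45 for genes with a mean of at least 10 CPM and -0.54 within 5 Mb, where the cause was not tested. Genes lost like IFI16 numbered 22 with at most 3 counts allowed and 56 from at least 1 CPM, since both settings widen the rule. The directional calls numbered 598 to 777, against 769, and the L1 log2 ratio near the block was 0.94 to 1.501. With the replicate number as a block (replicate block), 7074 genes were called and IFI16 stood at -9.53. Same-numbered libraries did not deviate together (correlations 0.0040, 0.0021 and -0.03), and the main fit did not use the number as a pairing. Whether same-numbered libraries were prepared together is not given in the labels. AIM2, MNDA and PYHIN1, with no counts, have no value under any alternative. The 3 counts that a 0 allows limit what the depth shows for them.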
